A study of Mus musculus with 12 samples.

Results

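Atf3 (ENSMUSG00000026628) encodes activating transcription factor 3, a stress-inducible DNA-binding protein, and is 1 gene of the 17335 found in either of the count tables for a pair of mouse pancreatic cell lines. Its RNA was known to be far higher after a supernatant linked to gemcitabine in both lines. It was chosen by its CPM (its count relative to the total of the library, scaled as usual) in the 12 libraries, its difference between the gemcitabine and control groups of each line, and its rank among all genes. Its own levels, fold changes and ranks are therefore given as a description, with no test. The tests below concern other genes.

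RNA sequencing followed a signal passed from tumour cells to stromal cells and back. KPC4, a pancreatic adenocarcinoma line, and PSC4, a pancreatic stellate cell line of the kind of cell that can become a fibroblast, each served as donor and as recipient. In the first step, donor KPC4 cells were given 10 µM gemcitabine, a nucleoside analogue used as chemotherapy, or vehicle for 6 h. After a wash they conditioned starvation medium for 14 h. PSC4 cells then spent 24 h in this medium from drug-treated donors (Gem-SU) or from vehicle-treated donors (Control-SU). In the second step, PSC4 cells spent 6 h in Gem-SU or Control-SU, were washed, and conditioned fresh starvation medium for 18 h. KPC4 cells then spent 24 h in that medium (Gem-PSC-SU or Control-PSC-SU). Each of the 4 groups had 3 libraries labelled as biological replicates, with nothing further said of how the cultures were kept apart, so the spread between them may be partly technical. All groups were thus in medium conditioned under starvation, and no sequenced culture was itself given the drug. Cells given the drug directly were not analysed here, so drug left in a supernatant and factors released by cells cannot be told apart. Each line was sequenced in only 1 of the steps, so line and step cannot be told apart either.

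ATF3 belongs to the ATF/CREB branch of the basic leucine zipper (bZIP) proteins, which bind DNA as pairs. As a pair with itself it is known mainly as a repressor, and with a JUN protein it can activate. Its gene is nearly silent in most resting cells and is switched on quickly by DNA damage, endoplasmic reticulum stress, amino acid shortage, cytokines and growth signals, through ATF4, p53, MAP kinases and AP-1 factors. In the pancreas it is known as one of the early genes of the injury response.

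The promoter is shown because several of those factors are known to act through short elements close to the start of the gene. The 250 bases before the start that RefSeq gives for Atf3, on the minus strand of chromosome 1 (GRCm38.p6, chr1:191183334-191183583), read 5′ to 3′ as below. Capitals mark 2 motif matches.

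Atf3 promoter: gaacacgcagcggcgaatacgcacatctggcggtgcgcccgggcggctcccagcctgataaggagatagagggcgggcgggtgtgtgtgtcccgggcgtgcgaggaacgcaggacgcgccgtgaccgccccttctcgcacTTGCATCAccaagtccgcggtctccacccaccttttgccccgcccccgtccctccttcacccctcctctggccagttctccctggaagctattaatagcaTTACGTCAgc

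Both strands were searched, and positions count back from the base before the start as -1. The first capitals, -110 to -103, are TTGCATCA, which is the C/EBP-ATF element TGATGCAA read on the other strand, the kind of element through which ATF4 acts. It was found in 260 of 32851 promoter windows of the same length (0.791%). The last capitals, -10 to -3, are TTACGTCA, the reverse complement of TGACGTAA, a variant of the cyclic AMP response element, found in 0.447% of windows. This match contains the half-site TGACG, which 17.8% of windows hold. The GC box GGGCGG matched 5 times and occurs in 32.7% of windows. The full element TGACGTCA (1.55% of windows), the AP-1 site TGACTCA (4.46%), CCAAT (33.8%), the serum response element (1.47%) and the p53 half-site (7.13%) had no match here. The window had 65.2% G and C bases, against a median of 52.4% over all windows. These matches describe letters only, since binding was not measured.

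In PSC4 the Atf3 transcript was low with Control-SU and high with Gem-SU. The 3 Control-SU libraries had 4.96, 3.38 and 3.02 CPM, and the 3 Gem-SU libraries had 1192, 967 and 903 CPM. The groups were far apart, with 903 CPM in the lowest Gem-SU library and 4.96 CPM in the highest control. Gem-SU libraries all above the controls, by any margin, were found for 29.3% of all genes tested in PSC4. Group means were 3.79 ± 1.03 CPM (SD, n = 3) and 1021 ± 151 CPM (SD, n = 3), a ratio of means of 269.6. The raw counts behind these were 93 to 171 reads per control library and 26660 to 45855 reads per Gem-SU library. Atf3 alone took 0.0902% to 0.120% of all counted reads with Gem-SU. Each Gem-SU library stood 239 to 315 times above the control mean.

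In KPC4, where the medium came from stellate cells, the difference was also large but uneven. The 3 Control-PSC-SU libraries had 5.16, 15.2 and 9.04 CPM. The 3 Gem-PSC-SU libraries had 198, 1591 and 1161 CPM. All 3 lay above every control, as for 11.8% of all genes tested in KPC4, but replicate 1 was much lower than the other two. Means were 9.80 ± 5.07 CPM (SD, n = 3) and 983 ± 713 CPM (SD, n = 3), a ratio of means of 100.3. Against the control mean the libraries were 20.2, 162 and 118 times higher. Against the control library of the same replicate number they were 38.3, 105 and 128 times higher, so replicate 1 was low in both groups.

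**Figure D1:**
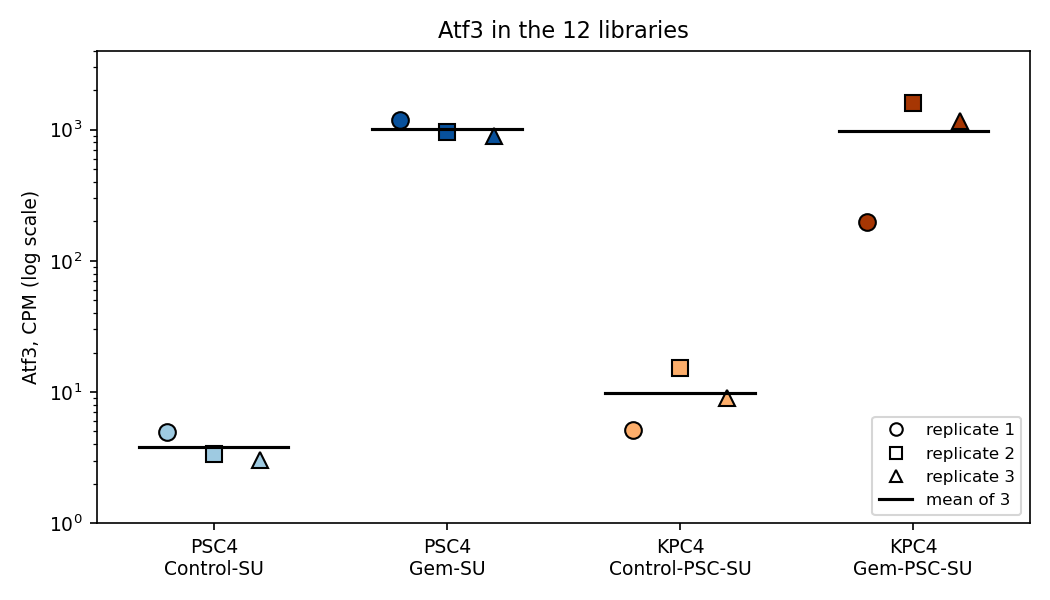
Atf3 level in each library, in CPM on a log axis, for the 4 groups, with symbols for the replicate number and a line at the mean of 3. Control libraries lie between 3.02 and 15.2 CPM and Gem libraries between 198 and 1591 CPM, with Gem-PSC-SU replicate 1 below the other Gem libraries.

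With all 12 libraries scaled together, the level of Atf3 was lowest in PSC4 controls at 3.83 ± 1.05 CPM (SD, n = 3). KPC4 controls followed at 9.98 ± 5.23 CPM (SD, n = 3), 2.61 times higher, with library ranges of 3.07 to 5.03 and 5.24 to 15.6 that nearly met. The Gem groups reached 994 ± 711 CPM in KPC4 and 999 ± 146 CPM in PSC4 (SD, n = 3 each). Their ratio was 1.00, and their library values overlapped. The control ranges of the lines were thus separate but close, at 5.03 and 5.24 CPM. How many of all genes separate these control groups was not counted. The mean levels of the Gem groups did not differ beyond their spread, which was wide in KPC4.

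The spread between replicates was ordinary for Atf3 in PSC4 and wide in KPC4. On the log2 CPM scale the SD was 0.33 among PSC4 controls and 0.21 among Gem-SU libraries. Genes of like level in the same groups had median SDs of 0.31 and 0.23. In KPC4 the SD was 0.74 among controls, where 95.2% of 1343 genes of like level had a lower SD. Among Gem-PSC-SU libraries it was 1.62, and all 168 genes of like level had a lower SD, with a median of 0.27. The highest and lowest of those 3 libraries differed 8.05-fold.

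On the log2 scale, the fitted Atf3 difference was 8.07 (SE 0.29) in PSC4 and 6.65 (SE 0.82) in KPC4, beside medians over all genes tested of -0.003 and -0.02. Over all genes tested, same-numbered KPC4 libraries deviated together, and a fit with replicate number as a block gave a KPC4 difference of 6.35 (SE 0.43). The same block in PSC4 gave 8.09 (SE 0.21). There the numbers did not pair the libraries over all genes, though Atf3 itself was highest in replicate 1 and lowest in replicate 3 of both groups. Leaving out any 1 library gave 7.89 to 8.31 in PSC4 and 6.11 to 7.13 in KPC4. Without Gem-PSC-SU replicate 1 it was 7.13. In one fit of all libraries the PSC4 difference exceeded the KPC4 difference by 1.39 (SE 0.78). With the replicate block in both lines, though the numbers did not pair the PSC4 libraries, this excess was 1.69 (SE 0.40). Without Gem-PSC-SU replicate 1, and with no block, it was 0.88. The authors' deposited table lists log2 fold changes of 7.79 for Atf3 in PSC4 and 6.79 in KPC4.

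By fold change Atf3 ranked 9 of 13347 genes tested in PSC4 and 5 of 13236 in KPC4. All 8 genes above it in PSC4 and all 4 in KPC4 had fewer than 10 counts in every control library, so their folds rest on near-empty controls. The PSC4 rank was led by Hey2, a transcriptional repressor downstream of Notch. It had at most 1 count in a control library and 145 to 342 counts with Gem-SU, at least 72.5-fold above a floor of 3 counts per library. Grhl3, Csf2, Gm48141 and Fat2 came next, at least 17.0-fold, 15.0-fold, 14.4-fold and 13.9-fold above that floor. Gm19085, Gm19410 and Hes2 stood just below Atf3, also with at most 1 control count.

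In KPC4 the 4 genes above Atf3 were Selplg, Arc, Krt16 and Hist1h2bn, each with at most 6 counts in a control library. Just below it were the chemokine gene Cxcl2 (log2 fold change 6.58), the cytokine gene Csf2 (6.50) and Egr2 (6.31), an immediate early transcription factor. Among genes with at least 10 counts in at least 1 control library, a condition added after the data were seen, Atf3 ranked 1 in both lines. That place held less well when 1 library was left out. It became 3, 4 and 4 without PSC4 control replicates 1, 2 and 3. In KPC4 it became 12, 10 and 2 without control replicates 1, 2 and 3, 2 without Gem-PSC-SU replicate 3, and 2 with the replicate block. By the gain in mean CPM, which favours abundant genes, Atf3 ranked 6 in each line, with gains of 1017 CPM in PSC4 and 974 CPM in KPC4. In the authors' deposited tables its log2 fold change ranked 10 of 15371 in PSC4 and 13 of 14515 in KPC4.

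Large increases were fewer in the second step. The log2 fold change exceeded 5 for 74 genes in PSC4 and 17 in KPC4, and for 7 of the 12207 genes tested in both lines. These were Arc, Atf3, Csf2, Egr2, Fos, Egr1 and Krt16. Ordered by the smaller of their values, Arc (7.13 in PSC4, 7.69 in KPC4) came first and Atf3 second. Arc, a neuronal immediate early gene, had at most 6 control counts in KPC4.

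**Figure D2:**
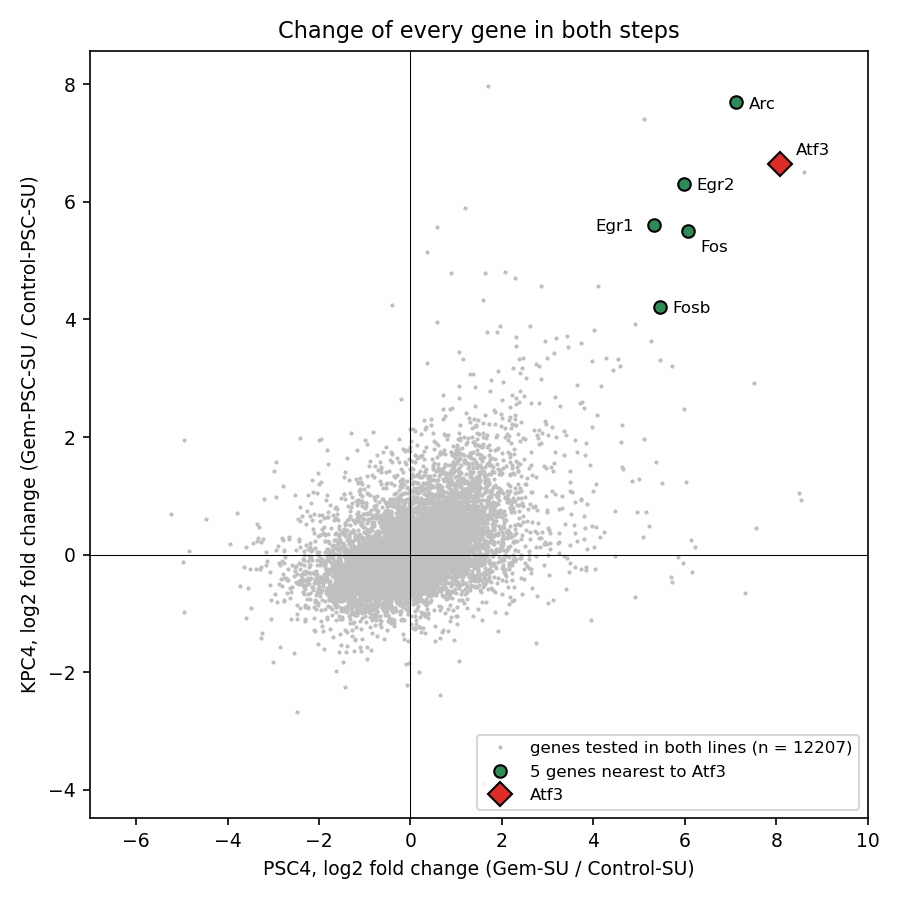
Log2 fold change of every gene tested in both lines (n = 12207), PSC4 on the horizontal and KPC4 on the vertical axis, with Atf3 as a diamond and the genes nearest to it in profile as circles. Atf3 lies at 8.07 and 6.65, in the upper right with Arc, Egr2, Egr1 and Fos, away from the mass of genes around 0.

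The genes whose profiles lay closest to that of Atf3 were immediate early genes, which cells transcribe very soon after a stimulus. Closeness was the root mean square difference over the 12 libraries between log2(CPM + 0.5) values centred within each line, among 11474 genes, and it uses the same values that chose Atf3. The nearest were Fos (0.98), Egr2 (1.01), Arc (1.07), Egr1 (1.09) and Fosb (1.46), against a median gene at 3.65. A gene flat within each line would lie at 3.64, the root mean square of the centred Atf3 profile itself. The median thus mostly reflects the size of the Atf3 difference, and closeness favours genes with large differences in both lines. Fos encodes an AP-1 subunit that pairs with JUN proteins. In PSC4 its CPM was 4.26, 4.45 and 2.50 in controls and 281, 220 and 249 with Gem-SU. In KPC4 it was 4.96, 5.13 and 4.22 in controls and 28.8, 434 and 188 with Gem-PSC-SU. Neither line had overlapping groups, and replicate 1 was again the lowest Gem-PSC-SU library. Egr1, a zinc finger factor of the same early response, was at 110, 85.6 and 68.3 CPM in PSC4 controls and at 3058, 3388 and 4087 CPM with Gem-SU. In KPC4 it was at 30.9, 34.4 and 41.2 CPM in controls and at 275, 3548 and 1378 CPM with Gem-PSC-SU. The controls were steady and the Gem-PSC-SU libraries were spread widely.

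Atf3 and all 5 of these genes shared an order among the Gem-PSC-SU libraries, with replicate 1 lowest and replicate 2 highest. The 5 were chosen for closeness to Atf3 over libraries that include these, so their shared order was partly set by that choice. That order was found in 3673 of 13236 genes tested in KPC4 (27.8%). It was found in 13 of the 15 dimer partners described next and in 50 of 88 genes over all pathway lists. What set replicate 1 apart was not tested.

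**Figure D3:**
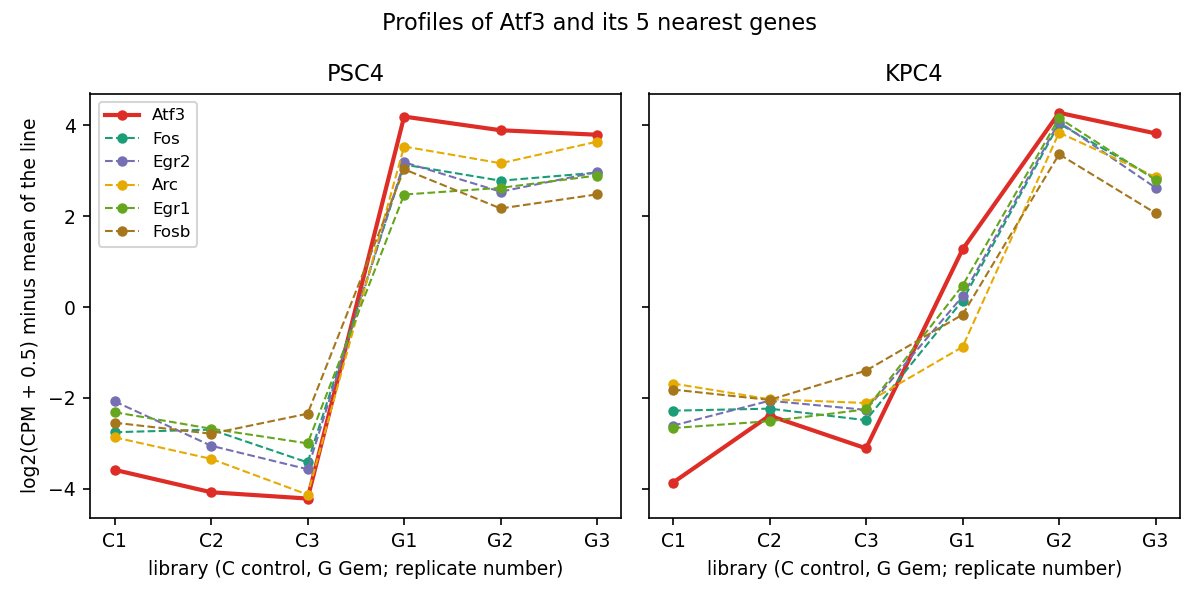
Log2(CPM + 0.5) minus its mean in the line, for Atf3 (thick line) and its 5 nearest genes in each library (C control, G Gem, with the replicate number), where lines only join values of 1 gene. All 6 genes are high in every Gem-SU library of PSC4. Among the Gem-PSC-SU libraries of KPC4 they are lowest in replicate 1 and highest in replicate 2.

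Per kilobase of merged exon length, Atf3 moved from the lower ranks of the ATF/CREB and other bZIP genes to the top. In PSC4 controls it had 1.76 CPM per kb and was 27th of 35 such genes, with Atf4 first at 85.6 CPM per kb. With Gem-SU it had 474 CPM per kb, just behind Junb at 488 and ahead of Atf4 at 280. In KPC4 controls it had 4.55 CPM per kb and was 24th of 34, where Jund led at 97.1. With Gem-PSC-SU it was first at 457 CPM per kb, followed by Junb at 324 and Jun at 161. Among all genes this placed Atf3 40th of 16329 with Gem-SU and 56th of 15265 with Gem-PSC-SU. With the median transcript length in place of merged exons it was 2nd of the family in both Gem groups, and 193rd and 251st of all genes.

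Calls for other genes used edgeR's quasi-likelihood test with an adjusted p under 0.05. In PSC4 it called 46.3% of all genes tested, 24.3% higher and 22.0% lower with Gem-SU. In KPC4 it called 0 of 13236 (0%), while 2251 (17.0%) had an unadjusted p under 0.05. With the replicate block it called 8.85% of KPC4 genes, 6.07% higher and 2.78% lower, and DESeq2 called 5.95%, 5.11% higher. In KPC4 10.9% of genes were higher at an unadjusted p under 0.05. Leaving out Gem-PSC-SU replicate 1 edgeR called 8.30%, 6.31% higher and 1.99% lower. Counts of list genes are to be read against these shares.

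The ATF/CREB relatives did not move as a block in PSC4. Of 20 listed, 17 were tested, 4 rose and 3 fell, with a median log2 fold change of -0.09, close to that of all genes. The closest relative, Jdp2, a repressor of AP-1 sites, was at 42.9, 36.8 and 39.5 CPM in controls and 52.1, 34.1 and 33.0 CPM with Gem-SU. The groups overlapped fully, with a log2 fold change of 0.00 (SE 0.20; edgeR adjusted p = 0.999). Atf4, the factor made when translation is held back under stress, rose by 1.71 on the log2 scale (SE 0.23; edgeR adjusted p = 6.23e-04), from 140 to 237 CPM in controls to 614 to 745 CPM. Creb5, a binder of cyclic AMP response elements, rose by 2.97 (SE 0.30; edgeR adjusted p = 1.87e-04), from 6.56 ± 0.37 to 51.6 ± 19.7 CPM (SD, n = 3).

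In KPC4, 0 of the 18 relatives tested were called by edgeR and 0 by DESeq2, and 3 had an unadjusted p under 0.05. With the replicate block 4 were called, all higher, and the median log2 fold change was 0.26. Atf4 was at 89.8, 194 and 160 CPM in controls and 151, 564 and 329 CPM with Gem-PSC-SU, so the groups overlapped. Its log2 fold change was 1.23 (SE 0.45; edgeR adjusted p = 0.228, with the block 0.00991). Jdp2 had a log2 fold change of 0.86 (SE 0.32; edgeR adjusted p = 0.231, with the block 0.0351). Its KPC4 libraries lay between 7.41 and 22.8 CPM, with groups that overlapped.

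The bZIP dimer partners are proteins that can pair with ATF3 or with its partners. In PSC4 10 of 15 rose and 2 fell, with a median log2 fold change of 2.35. Fos rose by 6.06 (SE 0.27; edgeR adjusted p = 1.45e-05). Fosl1, another AP-1 subunit, rose by 3.71 (SE 0.19; edgeR adjusted p = 1.93e-05), from 9.52 to 14.5 CPM in controls to 142 to 165 CPM with Gem-SU. Ddit3, which encodes the stress factor CHOP, rose by 2.45 (SE 0.25; edgeR adjusted p = 2.16e-04), from 23.1 ± 2.60 to 126 ± 46.1 CPM (SD, n = 3). Of other members, picked after their values were seen, Jun rose by 2.99 and Junb by 3.40 on the log2 scale. The 2 that fell were Fosl2, by 1.14 (SE 0.18, edgeR adjusted p = 0.00138), and Cebpb, by 1.18 (SE 0.40, edgeR adjusted p = 0.0405). The Cebpb groups overlapped, at 159, 52.5 and 98.6 CPM in controls and 66.6, 38.6 and 31.5 CPM with Gem-SU.

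In KPC4 the edgeR test called 0 of these 15, while 10 had an unadjusted p under 0.05 and DESeq2 called 10. For 12 of them the Gem libraries all lay above the controls, as for 11.8% of all genes tested in KPC4. The block fit called 5, all higher, and the fit without Gem-PSC-SU replicate 1 called 11. Their median log2 fold change was 1.29. Fos had a log2 fold change of 5.50 (SE 0.86; edgeR adjusted p = 0.112, with the block 0.109). Ddit3 was at 6.34, 7.97 and 10.0 CPM in controls and 19.6, 115 and 85.7 CPM with Gem-PSC-SU, and its log2 fold change was 3.18 (SE 0.57; edgeR adjusted p = 0.112, with the block 0.0262). Fosl2 and Cebpb, which fell in PSC4, had log2 fold changes of 1.24 and 1.29 in KPC4 (edgeR adjusted p = 0.112 and 0.158, with the block 0.0165 and 0.0140). For both, the difference between the lines passed edgeR's interaction test (adjusted p = 6.31e-04 for Fosl2 and 0.0196 for Cebpb). The same held for 9.85% of all genes in that fit, and for 21.9% with the replicate block in both lines.

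**Figure D4:**
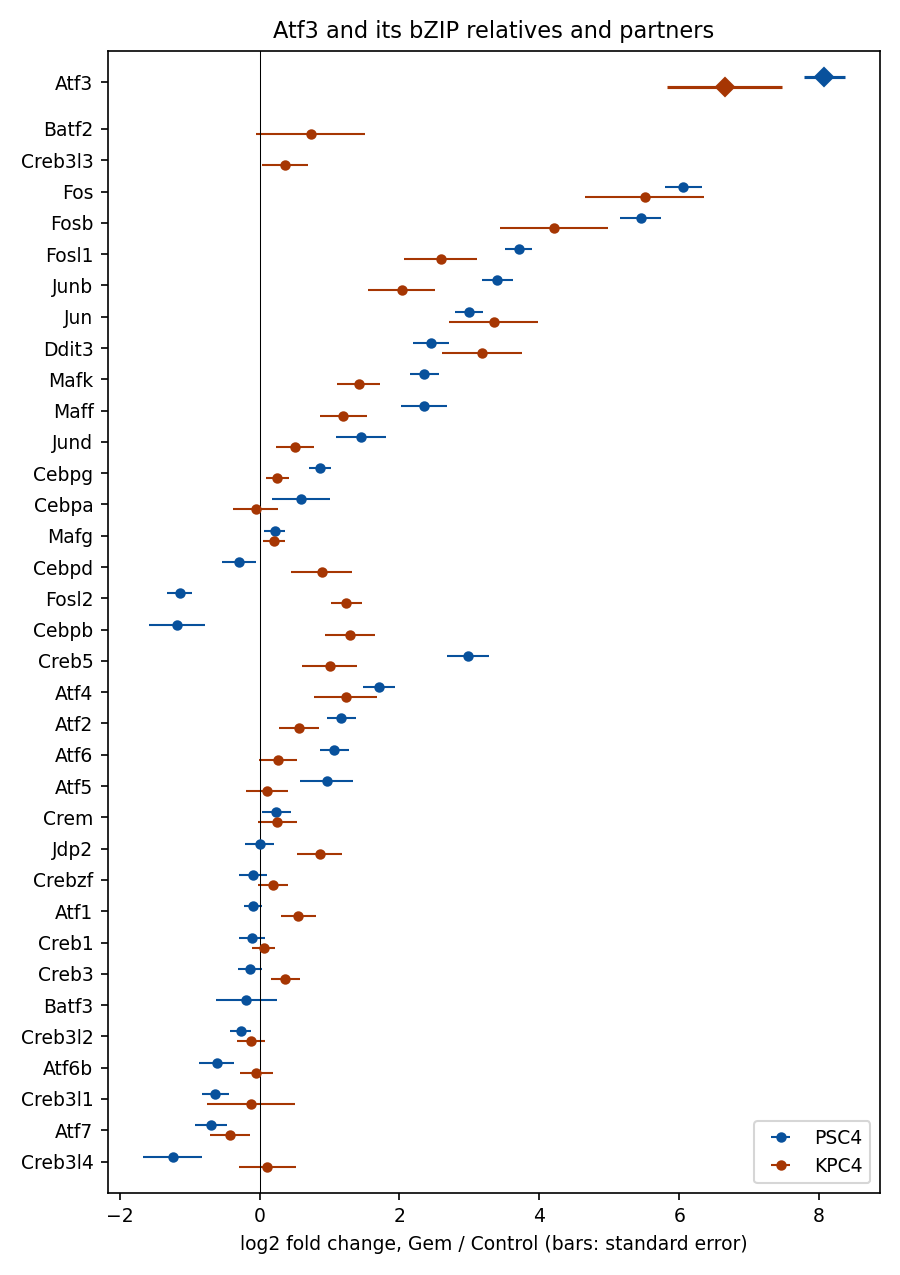
Log2 fold change, Gem over control, of Atf3 (diamonds) and the tested ATF/CREB relatives and bZIP dimer partners in PSC4 and KPC4, with bars for the standard error of the fit. Atf3 has the furthest values at 8.07 and 6.65, Jdp2 lies at 0.00 in PSC4, and Fosl2 and Cebpb lie on opposite sides of 0 in the 2 lines.

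Genes of the stress responses that lead to Atf3 included kinases that sense stress and genes downstream of ATF4. In PSC4 9 of 16 rose and 3 fell, with a median log2 fold change of 0.75. Sesn2, an inhibitor of mTORC1 signalling, rose by 3.25 (SE 0.19; edgeR adjusted p = 2.21e-05). Its CPM was 34.5, 26.2 and 37.3 in controls and 288, 348 and 294 with Gem-SU. Ppp1r15a, which encodes the GADD34 subunit that restores translation after stress, rose by 2.81 (SE 0.18; edgeR adjusted p = 3.24e-05). Ern1, the IRE1 sensor of unfolded protein, rose by 1.93 (SE 0.18; edgeR adjusted p = 1.30e-04). Xbp1, whose RNA IRE1 cuts, fell by 1.44 (SE 0.15) and Nupr1, a stress-induced chromatin protein gene, fell by 1.29 (SE 0.30), both named after their values were seen.

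In KPC4 edgeR called 0 of these 16, 8 had an unadjusted p under 0.05 (7 higher, 1 lower) and DESeq2 called 5. With the block 5 were higher and 1 lower, and the median log2 fold change was 0.47. Ppp1r15a was at 17.3, 21.2 and 20.6 CPM in controls and 55.2, 294 and 197 CPM with Gem-PSC-SU, and its log2 fold change was 3.21 (SE 0.52; edgeR adjusted p = 0.112, with the block 0.0298). Ern1 had a log2 fold change of 0.73 (SE 0.19; edgeR adjusted p = 0.149, with the block 0.0335). Sesn2 had one of 0.77 (SE 0.23; edgeR adjusted p = 0.174, with the block 0.0400).

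Genes of p53 and its response stand for another known route to Atf3. Of 15 tested in PSC4 12 rose and 1 fell, with a median log2 fold change of 2.98. Mdm2, the p53 ubiquitin ligase, rose by 5.50 (SE 0.28; edgeR adjusted p = 1.93e-05), from 80.9, 92.2 and 63.5 CPM to 3095, 4431 and 3146 CPM. Gdf15, a secreted stress cytokine, rose by 5.26 (SE 0.21; edgeR adjusted p = 1.45e-05), from 1.26 ± 0.21 to 48.4 ± 3.83 CPM (SD, n = 3). Btg2, an antiproliferative gene, rose by 5.97 (SE 0.32; edgeR adjusted p = 1.93e-05). The 1 that fell was Sesn1, by 1.40 on the log2 scale.

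In KPC4 edgeR called 0 of the 14 tested, 7 had an unadjusted p under 0.05, DESeq2 called 6, and the block fit called 4. The median log2 fold change was 0.38. Btg2 was at 23.0, 25.0 and 28.8 CPM in controls and 57.9, 225 and 146 CPM with Gem-PSC-SU, and its log2 fold change was 2.48 (SE 0.43; edgeR adjusted p = 0.112, with the block 0.0222). Plk3, a stress-activated kinase, had one of 3.14 (SE 0.59; edgeR adjusted p = 0.112, with the block 0.00804). Mdm2 was at 51.4, 61.6 and 56.5 CPM in controls and 78.4, 198 and 118 CPM with Gem-PSC-SU. Its log2 fold change was 1.22 (SE 0.31; edgeR adjusted p = 0.138, with the block 0.0212). The PSC4 value exceeded it by 4.24 (edgeR interaction adjusted p = 2.42e-04).

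In the list of MAP kinases and immediate early genes, 13 of 21 rose and 3 fell in PSC4, with a median log2 fold change of 1.19. Egr1 rose by 5.32 (SE 0.28; edgeR adjusted p = 1.93e-05). Egr2 rose by 5.98 (SE 0.46; edgeR adjusted p = 6.46e-05), from 3.65, 1.61 and 0.975 CPM to 159, 101 and 137 CPM. Mapk3, which encodes ERK1, was among those that fell, by 1.83 (SE 0.25). In KPC4 edgeR called 0 of 21, 9 had an unadjusted p under 0.05, DESeq2 called 8 and the block fit called 5, all higher. The median log2 fold change was 0.19. Egr2 was at 0.288, 0.652 and 0.502 CPM in controls and 5.16, 80.5 and 29.1 CPM with Gem-PSC-SU, and its log2 fold change was 6.31 (SE 0.97; edgeR adjusted p = 0.112, with the block 0.00143). Egr1 had one of 5.61 (SE 0.82; edgeR adjusted p = 0.106, with the block 0.0921).

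The last list held genes that ATF3 has been reported to repress, cytokine genes among them. In PSC4 9 of 12 were tested, of which 8 rose and 1, Mmp2, fell, with a median log2 fold change of 2.45. Ifnb1, the interferon-beta gene, rose by 4.93 (SE 0.57; edgeR adjusted p = 3.47e-04), on 19, 2 and 12 counts in controls and 301, 461 and 278 counts with Gem-SU. Il6 rose by 4.11 and Ccl4 by 5.27, on at most 9 and 2 control counts. Mmp2, a gelatinase of the matrix, fell by 0.86 (SE 0.27). In KPC4 6 were tested, edgeR called 0, 3 had an unadjusted p under 0.05, DESeq2 called 1 and the block fit called 2. Tnf had 0, 0 and 5 counts in KPC4 controls and 9, 257 and 57 counts with Gem-PSC-SU. Its log2 fold change of 5.95 (SE 1.44; edgeR adjusted p = 0.124, with the block 0.0246) rests on those few control counts. The level of Atf3 RNA does not give the amount or activity of its protein, which was not measured.

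Over all 6 lists, 54 of 91 genes rose and 13 fell in PSC4, with a median log2 fold change of 1.07. In KPC4 edgeR called 0 of 88, with 37 higher and 1 lower at an unadjusted p under 0.05. DESeq2 called 29, all higher, and the block fit 23 higher and 1 lower. Without Gem-PSC-SU replicate 1 edgeR called 35 higher and 4 lower. Atf4 and Ddit3 each stand in 2 lists.

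Total counts per library ran from 29559414 to 38138356 in PSC4 and from 26354328 to 34744150 in KPC4, so counting error is small beside the replicate spread of Atf3. PSC4 Control-SU replicate 2 stood somewhat apart, with 14427 genes detected against 15354 to 15407 in the other PSC4 libraries and 7.28% mitochondrial counts against at most 4.10%. Its Atf3 level of 3.38 CPM lay between those of the other controls. Of the 12 stellate and fibroblast markers 11 were in the PSC4 table, led by Col1a1, with Lum absent. All 12 ductal markers were in the KPC4 table, led by Krt8. The stellate markers summed to 6017 to 7661 CPM in PSC4 controls and 2040 to 3128 CPM with Gem-SU, and 8 of 11 fell. The ductal markers summed to 3.94 to 6.31 CPM in PSC4 controls and 12.1 to 15.9 CPM with Gem-SU, and 2 of 4 tested rose, while Epcam, Cdh1, Cldn4 and Spint1 were not in the table. In KPC4 they summed to 6016 to 7484 CPM in controls and 5591 to 7539 CPM with Gem-PSC-SU, while stellate markers summed to 26.0 to 33.2 CPM and 16.2 to 33.8 CPM. Leukocyte markers, with Cd14 the highest, summed to 18.6 to 28.0 CPM in PSC4 controls and 13.6 to 16.5 CPM with Gem-SU. In KPC4 they summed to 63.9 to 78.5 CPM in controls and 29.6 to 55.7 CPM with Gem-PSC-SU. These sums were lower in the Gem groups with no overlap in both lines, but they rest mostly on Cd14. Its mean was 17.6 CPM in PSC4 controls and 9.65 with Gem-SU, and 70.6 CPM in KPC4 controls and 43.7 with Gem-PSC-SU. Of the 3 leukocyte markers tested in each line, the log2 fold change was positive for 1 and negative for 2 in PSC4. In KPC4 it was positive for 2 and negative for 1. Endothelial, acinar and endocrine markers summed to 10.3 to 17.5 CPM in PSC4 controls and 6.36 to 7.91 CPM with Gem-SU, and in KPC4 to 6.52 to 9.98 CPM and 6.33 to 9.08 CPM. The part of these marker shifts in the Atf3 difference was not tested. In bulk RNA, fewer cells that express a gene and less of its RNA per cell cannot be told apart, so the share of cells with Atf3 is not known.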

How the data were processed

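Total RNA from 12 cultures was used for sequencing (NovaSeq X Plus), according to the labels. The authors deposited 1 table of whole-number counts per gene and library for each line. A second deposited table for each line holds the authors' log2 fold changes and p-values, and of these only the log2 values of Atf3 were used. Trim Galore 0.6.10, cutadapt 5.2, Salmon, DESeq2, R 4.5.1 and build GRCm39 are named in the submitters' processing notes. How transcript estimates became whole gene counts, the annotation and the strand setting are not given in the sources used here, so overlapping and antisense genes are uncertain. The smallest row total was 0 in PSC4 and 11 in KPC4. Symbols and exon lengths came from GENCODE M21 (16329 of 16386 and 15265 of 15309 identifiers matched) and the promoter from RefSeq GRCm38.p6. Both rest on another build than the counts and served only for names, lengths and promoter letters.

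Each line was fitted with edgeR 4.0.16 in R 4.3.3 (filterByExpr, TMM, robust quasi-likelihood test, Benjamini-Hochberg over all genes, 0.05). CPM was scaled by TMM within a line, and marker sums by plain totals. Lines were compared by an interaction term over all libraries together. DESeq2 1.42.0, its size factors, other filters, the replicate block and leaving out each library were alternatives. The method was tested on simulated counts.

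In KPC4 a shared replicate number was treated as a pair, from the values alone: libraries with the same number deviated from their groups with correlations of 0.428, 0.520 and 0.310, all above 0.1. Calls with the block stand beside the others for KPC4.

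Atf3, the gene lists, the tests and the naming rule were chosen with earlier results of these data known. The rule named up to 5 genes ranked above and 3 below Atf3, its 5 nearest profiles, the 2 genes of smallest p per list and line, and Jdp2 and Atf4. Other genes named were picked after their values were seen. Lists are described by counts and medians only. 0 columns of sample values were left unused.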

Additional observations from a re-analysis of the deposited data

Results flagged for a closer look

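The genes below, taken from the lists around Atf3, responded differently in the 2 lines. Their log2 fold change in PSC4 minus that in KPC4 passed edgeR's interaction test (adjusted p under 0.05 over all genes in the fit). It did so for 9.85% of all 13632 genes and for 14 of the 39 named genes considered here that could be tested. The 39 include Arc, which is in none of the lists. Many of the 39 were named for a small p or after their values were seen, so this count says nothing about the lists. All 14 also passed with the replicate block, as did 21.9% of all genes. Line and step of transfer cannot be told apart in these differences.

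Among p53 genes the PSC4 response was larger by 4.24 for Mdm2 (edgeR interaction adjusted p = 2.42e-04), 3.45 for Btg2 (0.00226), 3.14 for the cell cycle inhibitor Cdkn1a (0.00172) and 2.59 for Ccng1 (2.95e-04). Among stress genes it was larger by 2.42 for Sesn2 (edgeR interaction adjusted p = 5.61e-04) and 1.16 for Ern1 (0.0131). Among genes reported as repressed by ATF3 it was larger by 3.29 for the cystine transporter gene Slc7a11 (edgeR interaction adjusted p = 0.0154), 1.97 for Id1 (0.0139) and 1.33 for asparagine synthetase, Asns (0.0350). Creb5, an ATF/CREB relative, differed by 1.93 (edgeR interaction adjusted p = 0.0352).

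The difference was negative for 4 genes. It was -2.43 for Fosl2 (edgeR interaction adjusted p = 6.31e-04), -2.52 for Cebpb (0.0196), -2.15 for Nupr1 (0.0159) and -1.62 for Mapk3 (0.0120). Fosl2, Cebpb and Nupr1 fell in PSC4 and had log2 fold changes of 1.24, 1.29 and 0.81 in KPC4. None of these KPC4 values passed edgeR's test without the block, and with it Fosl2 and Cebpb passed while Nupr1 did not (edgeR adjusted p = 0.0165, 0.0140 and 0.149).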

How the results depend on the processing

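The Atf3 log2 fold change stayed positive in every alternative run, 7.89 to 8.31 in PSC4 and 6.11 to 7.13 in KPC4, as did the excess of PSC4 over KPC4, at 0.88 to 1.89. Its rank by fold, 9 and 5, moved with the setting: 12 and 23 in PSC4 and KPC4 with no low-count filter, 1 and 1 with at least 10 counts in every library, 7 and 20 with DESeq2, and 6 to 24 and 8 to 35 when 1 library was left out. Genes called in PSC4 numbered 6177, and 4061 (without Gem-SU replicate 2) to 6826 with 1 library left out. Genes called in KPC4 numbered 0 with edgeR, 1171 with the replicate block, 822 with DESeq2 and 610 in one fit of 12 libraries. With 1 library left out they numbered 0 to 1129: leaving out replicate 1 of Gem-PSC-SU gave 1129, replicate 2 of Control-PSC-SU gave 174, and replicate 2 of Gem-PSC-SU gave 1. The cause was not tested. In PSC4 the numbers did not pair the libraries (correlations 0.557, -0.0440 and 0.0973), and the replicate block gave 7266 calls there. Depth limits the folds of genes with few control counts, not that of Atf3.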
